A study of Mus musculus with 3 samples.

Results

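Blood of Het mice that carried brain metastases was compared with blood of naive Het mice, cell type by cell type, in single-cell RNA profiles with antibody tags. The comparison set 1 hashed sample of each kind against the other and used the 4 cell types that the authors' clusters matched between the deposited tables of naive and of metastasis-bearing blood: neutrophils, B cells, monocytes and T cells. A cell was kept when its barcode occurred in only 1 table of the series and when the hashtag of its own table's samples made up at least 0.5 of its hashtag counts. This left 3381 cells of the 16328 in the series, 1549 from the naive and 1832 from the metastasis-bearing Het sample.

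The mice were females of 2 to 3 months on a C57Bl/6 background. Blood was drawn by cardiac puncture into heparin and its red cells were lysed. In the metastasis group, cells of the mouse breast cancer line E0771 had been injected into the carotid artery about 2 weeks earlier, and naive mice had no brain metastases. The pool of 8 hashed samples held the genotypes Cx3cr1+/-, Cx3cr1-/-, CCR2+/- and CCR2-/-, and the blood labels read only Het and Hom without the gene. How many mice gave each blood sample is not given in the sources used here. All 8 samples were stained with 35 antibodies and loaded together for the 10x 3' v3 assay. With 1 sample in each group, no difference below has a replicate check or a p-value, and condition, animal and hashtag cannot be told apart.

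The hashtags are shown because they alone assign a cell to its sample. Each hashed sample was identified by a 15-base barcode on its hashing antibody, printed in capitals.

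Het naive: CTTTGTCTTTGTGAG
Het metastasis-bearing: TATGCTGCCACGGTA
Hom naive: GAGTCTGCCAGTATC
Hom metastasis-bearing: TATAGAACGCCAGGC

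The median share of hashtag counts that came from the own table's samples was 97.7% in the Het naive sample and 96.1% in the Het metastasis-bearing sample. The Hom samples, which carry the other genotype, were used only as a second pair, with medians of 98.4% and 97.5%. They were loaded in the same pool and normalised in the same tables as the Het samples.

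Blood leukocytes of mice are mostly B cells, T cells, neutrophils and monocytes. Neutrophils mature in bone marrow, where they fill granules with antimicrobial proteins before release, while classical Ly6C-high monocytes leave the marrow through the chemokine receptor Ccr2 and can become patrolling monocytes, which carry Cx3cr1. All 4 cell types answer type I interferon by making antiviral proteins.

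Each cluster carried the markers of its name. The 10 neutrophil markers summed to 2464 and 2155 corrected counts per 10000 in neutrophils of the naive and metastasis-bearing Het samples. The 10 B cell markers summed to 192 and 168 in B cells, the 11 monocyte markers to 113 and 141 in monocytes, and the 12 T cell markers to 65.7 in T cells of each sample. The median raw depth per cell was 3036 and 3110 transcripts (UMIs) in neutrophils, 4677.5 and 4257 in B cells, 10772 and 13254 in monocytes, and 7760 and 7924 in T cells. Corrected counts, which the authors derived from UMIs at a common depth, summed to 7857009 over the clear cells of the naive and 9098099 over those of the metastasis-bearing Het sample. Of all barcodes, 845 were in both blood tables, 205 of them assigned to the Het sample in each table, and all 845 were left out. In these 845 shared barcodes the 2 tables gave the same genes a median log2 difference of 0.010 over 7262 genes, and 0 genes passed 1.5-fold.

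Monocytes made up a larger part of metastasis-bearing Het blood and neutrophils a smaller one. Monocytes were 10.2% of clear cells in the naive sample (95% interval 8.81 to 11.7, 175 of 1716 cells) and 15.5% in the metastasis-bearing sample (14.0 to 17.2, 322 of 2074 cells). Neutrophils were 46.3% (43.9 to 48.7, 795 cells) and 38.6% (36.5 to 40.7, 800 cells). These exact Clopper-Pearson intervals cover counting error only, and for both cell types the intervals of the samples did not overlap. B cells were 25.4% (23.4 to 27.5) and 27.6% (25.7 to 29.6). T cells were 8.33% (7.07 to 9.74) and 6.61% (5.57 to 7.76), and for B and T cells the intervals overlapped. With all deposited cells the B cell shares were 20.6% (19.0 to 22.2) and 25.7% (24.1 to 27.3), and these intervals did not overlap.

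The Hom pair shared the direction for monocytes and not for neutrophils. Monocytes were 9.20% of naive and 24.8% of metastasis-bearing Hom cells. Neutrophils were 19.1% and 41.5%, and B cells 40.8% and 16.5%. The naive samples alone thus differed by 46.3% against 19.1% in their neutrophil share, more than the Het samples did between conditions.

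**Figure D1:**
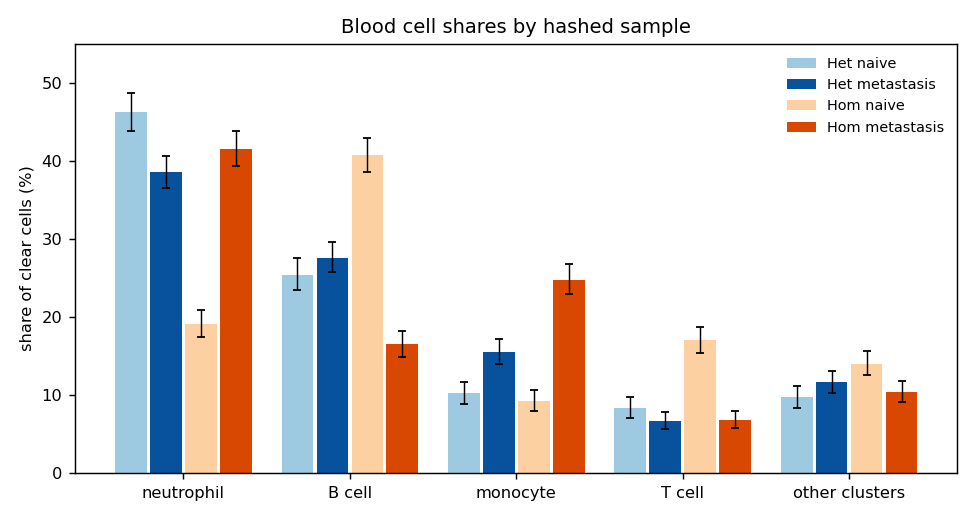
Share of clear cells (percent) in each author cluster class for the 4 hashed blood samples; bars are shares and error bars exact 95% binomial intervals. Monocytes were 10.2% and 15.5% of naive and metastasis-bearing Het cells, and 9.20% and 24.8% of Hom cells.

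The authors' antibody gates sorted the cells by surface protein. Cells in the Ly6C and Ly6G gate, which marks neutrophils, were 43.2% of naive and 37.3% of metastasis-bearing Het cells. Cells in the B220 gate, which marks B cells, were 30.2% and 32.5%. The CD3 gate, which marks T cells, held 13.3% and 8.49%, and the gate for the natural killer (NK) cell protein NK1.1 held 0.758% and 15.7%. Among the 322 monocytes of the metastasis-bearing Het sample, 224 (69.6%, 64.2 to 74.5) lay in the NK1.1 gate, against 1 of 482 in the Hom metastasis-bearing sample. Their 8 NK marker RNAs summed to only 0.0767 counts per 10000. Among the 175 monocytes of the naive Het sample, 51 (29.1%) lay in the CD3 gate, against 10 of 322 (3.11%) in the metastasis-bearing one. The Ly6C-high gate held 41.1% of naive and 16.1% of metastasis-bearing Het monocytes, and the Ly6C-low gate 14.3% and 4.04%. The cells of the B220, CD3, NK1.1, c-kit and all Ly6C gates added up to the 175 and 322 Het monocytes. Cells in the NK1.1 or CD3 gate were thus not in a Ly6C gate, and the lower Ly6C shares do not show less Ly6C protein. In Hom monocytes the Ly6C-high gate held 55.5% and 80.3%, and the Ly6C-low gate 21.4% and 11.2%. The NK1.1 and CD3 gates went against the RNA of the monocyte clusters in the Het samples, and monocytes were split by RNA and not by gate.

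Gene levels are given as corrected counts per 10000 corrected counts of the cell type. The log2 ratio is that of the metastasis-bearing over the naive level, each plus 0.1, which understates the difference of low genes. A gene was counted when it had at least 50 corrected counts and a level of at least 0.5 in the higher Het sample, and it was called higher or lower at a ratio of at least 1.5-fold. Neutrophils had 145 genes higher (6.46% of 2246) and 118 lower (5.25%). B cells had 27 higher (0.965% of 2797) and 45 lower (1.61%). Monocytes had 93 higher (3.14% of 2965) and 257 lower (8.67%). T cells had 33 higher (1.58% of 2091) and 94 lower (4.50%). The median log2 ratio of all counted genes was 0.10 in neutrophils, -0.05 in B cells, -0.08 in monocytes and -0.08 in T cells.

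The split between higher and lower calls moved with the scaling. With each cell type centred on its median the calls were 94 higher and 157 lower in neutrophils, 31 and 34 in B cells, 138 and 189 in monocytes, and 51 and 69 in T cells. With the mean corrected count per cell, not divided by the cell's total, they were 110 and 147 in neutrophils and 18 and 60 in B cells. In monocytes, where the metastasis-bearing cells were deeper, the lower calls were 31 of 826 counted genes after each cell was thinned to 1000 counts and 70 of 1980 among cells of a common range of depth, beside 103 and 132 higher calls.

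The Hom pair gave the same sign for most genes called in the Het pair. In B cells all 27 higher genes and 41 of the 45 lower genes had the same sign in the Hom pair, where 35.0% of all counted genes were above 0 and 65.0% below. In monocytes 79 of 93 higher and 215 of 257 lower genes did, beside 48.1% and 51.9% of all genes. In T cells 30 of 33 and 72 of 94 did, beside 44.7% and 55.3%. In neutrophils 104 of 145 higher genes and 74 of 118 lower genes did, beside 45.4% and 54.6%, and 11 of those 118 were at least 1.5-fold higher in the Hom pair.

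**Figure D2:**
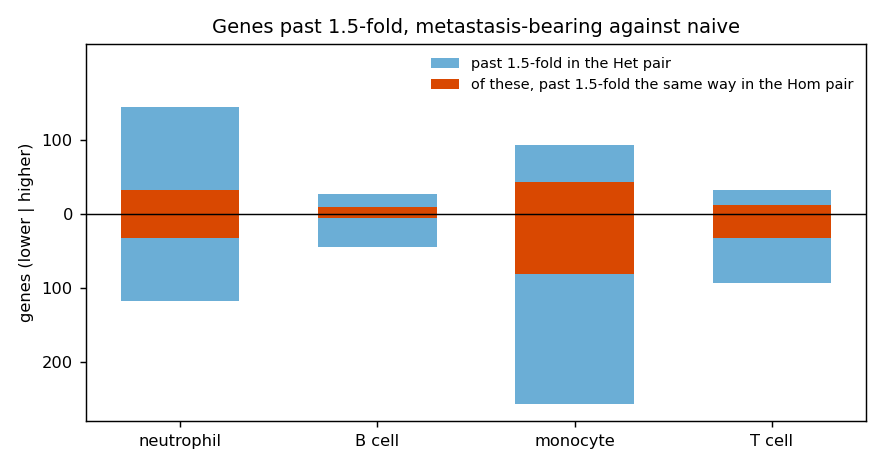
Number of genes at least 1.5-fold higher (above 0) or lower (below 0) in metastasis-bearing than naive Het blood, by cell type; the inner bars are those at least 1.5-fold the same way in Hom blood. Monocytes had 257 lower genes, 81 of them also past the fold in the Hom pair, and B cells 45 and 5.

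Among the 1065 genes counted in all 4 cell types, 2 were higher in every one (0.188%) and 2 were lower in every one (0.188%). The 2 higher genes, Rbm3 and Cirbp, encode RNA-binding proteins that are induced by mild cold. The 2 lower genes were Dnaja1, a co-chaperone of Hsp70, and Ifi27l2a, an interferon-induced gene.

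Rbm3 was 1.38 in naive and 4.28 in metastasis-bearing Het neutrophils, 3.63 and 8.78 in B cells, 3.28 and 9.76 in monocytes, and 3.66 and 7.93 in T cells. Its log2 ratio was 1.57 in neutrophils, 1.54 in monocytes and 1.09 in T cells, and in B cells the ratio was 2.38-fold. In the Hom pair the log2 ratios were 0.95 in neutrophils, 1.09 in B cells, 1.54 in monocytes and 1.06 in T cells. In each pair and cell type the metastasis-bearing sample was thus the higher. After thinning every cell to 1000 counts, the share of cells with an Rbm3 count was 12.8% and 33.2% in Het neutrophils, 32.3% and 56.2% in B cells, 32.6% and 62.4% in monocytes and 30.8% and 54.0% in T cells. Without thinning it was 35.7% and 72.6% in neutrophils (intervals 32.4 to 39.2 and 69.4 to 75.7) and 78.9% and 97.6% in B cells.

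Cirbp was 0.328 and 1.48 in Het neutrophils, 1.08 and 3.19 in B cells, 0.381 and 0.862 in monocytes, and 0.983 and 1.94 in T cells. The log2 ratios were 1.89, 1.49, 1.00 and 0.91, and in the Hom pair 0.99, 0.97, 0.23 and 0.54. Monocytes were the weakest case for Cirbp: at 1000 counts per cell the share of monocytes with a count was 5.14% and 5.28%, against 17.1% and 36.6% without thinning. In neutrophils the thinned shares were 3.14% and 12.8%, and in B cells 9.40% and 29.0%.

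Dnaja1 was 1.95 and 1.17 in Het neutrophils, 2.78 and 1.55 in B cells, 2.40 and 1.07 in monocytes, and 3.44 and 2.20 in T cells. The log2 ratios were -0.69, -0.81, -1.10 and -0.62, and the Hom ratios of -0.71, -0.68, -0.69 and -0.58 lay close to them. The promoters of the genes shared by all 4 cell types are shown because Cirbp was past the fold upward and Dnaja1 downward in every one of them. RefSeq promoter windows of 250 bases before to 50 after a start site matched Cirbp (2 start sites) and Dnaja1 (3 start sites), and Rbm3 and Ifi27l2a were not matched. The first start site of each, GRCm38.p6, plus strand, is printed 5' to 3' in lower case, with a heat shock element in capitals.

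Dnaja1 chr4:40722218-40722517: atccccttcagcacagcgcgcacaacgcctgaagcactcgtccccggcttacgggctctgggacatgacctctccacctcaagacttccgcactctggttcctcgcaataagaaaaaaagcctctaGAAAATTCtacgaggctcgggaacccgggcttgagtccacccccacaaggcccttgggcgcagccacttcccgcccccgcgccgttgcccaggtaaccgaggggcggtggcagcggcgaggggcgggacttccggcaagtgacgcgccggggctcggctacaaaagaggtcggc
Cirbp chr10:80167589-80167888: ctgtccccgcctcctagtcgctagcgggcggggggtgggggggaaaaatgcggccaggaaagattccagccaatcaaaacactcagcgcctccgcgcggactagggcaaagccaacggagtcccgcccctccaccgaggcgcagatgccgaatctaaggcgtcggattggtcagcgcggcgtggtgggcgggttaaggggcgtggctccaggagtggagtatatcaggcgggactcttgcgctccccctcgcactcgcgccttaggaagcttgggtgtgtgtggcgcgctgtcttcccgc

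A single match was found over both strands of these 5 windows among the 5 motifs searched: the heat shock element GAANNTTC, as GAAAATTC at position 127 of the printed Dnaja1 window. Of all 32851 promoter windows, 7.86% held GAANNTTC. The AP-1 motif TGANTCA, the GAS motif TTCNNNGAA, the ISRE core TTTCNNTTT and the glucocorticoid receptor half-site AGAACA, which had no match in the 5 windows, were in 7.81%, 8.30%, 10.6% and 19.0% of promoters.

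Ifi27l2a was 12.8 and 4.60 in Het neutrophils, 8.76 and 3.93 in B cells, 25.9 and 16.8 in monocytes, and 7.25 and 3.31 in T cells. The log2 ratios were -1.46, -1.14, -0.62 and -1.11. In the Hom pair they were -0.65, -0.11, -0.44 and -0.06, so B and T cells showed little of it there. Neither Dnaja1 nor Ifi27l2a was called lower in all 4 cell types with each cell type centred on its median, with cells thinned to 1000 counts or with all deposited cells. After thinning, only 223 genes were counted in all 4 cell types, against 1065, so a gene could drop out there by not being counted. A log2 ratio of at least 0.32 in size in all 4 cell types added Serinc3 as higher, and Cyth4, Ly6d, Malat1, Rsrp1, Srsf7 and Trim30a as lower. Malat1, an abundant nuclear RNA, had log2 ratios of -0.60, -0.46, -0.68 and -0.67 in the Het pair and -0.40, -0.53, -0.73 and -0.42 in the Hom pair. Ly6d, a B cell surface protein, was also found in cells that should lack it: its Het level was 0.807 and 0.342 in neutrophils, beside 30.1 and 20.6 in B cells.

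**Figure D3:**
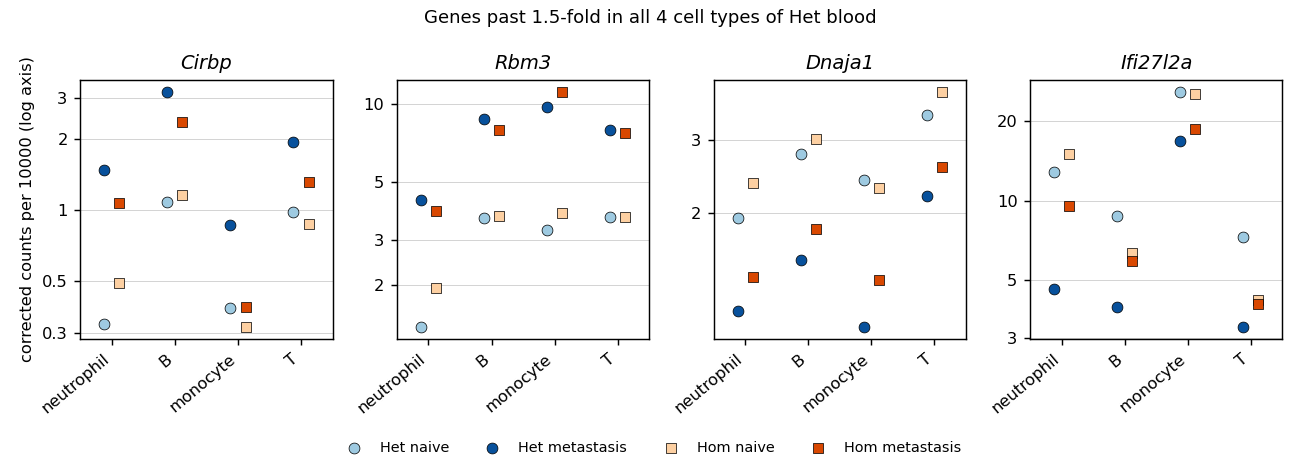
Level (corrected counts per 10000, log axis) of the 4 genes past 1.5-fold in every cell type of Het blood, 1 point for each hashed sample. Rbm3 in Het monocytes was 3.28 and 9.76, and Ifi27l2a in Het neutrophils 12.8 and 4.60.

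Few other chaperones passed the fold beside Dnaja1. Of the heat shock genes counted, Dnaja1 included, 1 of 4 was at least 1.5-fold lower in neutrophils, 2 of 6 in B cells, 2 of 6 in monocytes and 2 of 7 in T cells, and 0 were higher. In neutrophils that gene was Dnaja1 itself, and beside it stood Hspa8 in B cells, Hsp90aa1 in monocytes and Dnajb1, an Hsp40 co-chaperone (-0.89), in T cells. The median log2 ratios were -0.36, -0.45, -0.50 and -0.17, beside 0.10, -0.05, -0.08 and -0.08 over all genes. Hspa8, the constitutive Hsp70, had a log2 ratio of -0.70 in B cells, where 95.2% and 84.5% of cells had a count, and of -0.04 in both neutrophils and monocytes. Hsp90aa1, the inducible Hsp90, had a log2 ratio of -0.87 in monocytes and -1.17 in the Hom pair. The monocyte median was 0.03 when cells were thinned to 1000 counts.

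In neutrophils, genes of the type I interferon response were lower almost throughout. Of 17 interferon-stimulated genes counted, 16 were at least 1.5-fold lower in metastasis-bearing Het neutrophils and 0 were higher, with a median log2 ratio of -0.99 beside 0.10 over all genes. Isg15, a ubiquitin-like protein, was 3.61 and 0.942. Slfn5 was 2.69 and 0.744. The exception was Ly6e at 7.82 and 8.43. The median stayed between -1.10 and -0.57 over the 15 alternatives in processing. Alternatives that changed only another cell type or only the fold could not move a median.

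Irf7, a transcription factor of the pathway, was 1.09 and 0.522 in Het neutrophils. Oasl2, an oligoadenylate synthetase-like protein, was 6.52 and 3.37. The Hom pair differed in most of these genes: 5 of the 17 were at least 1.5-fold lower there and the median was -0.23. Ifi204 (-0.90) and Ifi27l2a (-0.65) were among the 5, while Oasl2 was 0.12 and Trim30a 0.06. Whether the pairs differed was not tested. The Hom naive level of Oasl2 was 4.54, below the 6.52 of Het naive neutrophils, and the Hom metastasis-bearing level was 4.95.

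In the other cell types fewer interferon-stimulated genes passed the fold. In monocytes 9 of 20 were at least 1.5-fold lower and 0 higher, with a median of -0.57 that lay between -0.77 and -0.15 over the alternatives. In B cells 3 of 7 were lower, with a median of -0.50, and in T cells 1 of 7, with a median of -0.29. The 1 lower gene in T cells was Ifi27l2a (-1.11), already named above as lower in every cell type. Ifi27l2a was also among the lower genes of this list in neutrophils (-1.46), B cells (-1.14) and monocytes (-0.62). The counts of this list thus include that gene again. Isg15 in monocytes was 2.22 and 0.830 in the Het pair and 2.26 and 0.949 in the Hom pair. Bst2, the antiviral protein tetherin, had log2 ratios of -0.66 in B cells and 0.15 in T cells. Cxcl10, an interferon-induced chemokine named in the study's title, was below the counting limit in every cell type: it was 0.141 and 0.0390 in Het neutrophils and 0.0784 in naive Het monocytes, where the log2 ratio was 1.17.

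Some granule genes of neutrophils were higher in metastasis-bearing blood. Of 13 granule and maturation genes counted in neutrophils, 5 were at least 1.5-fold higher and 0 lower, and 4 (Mmp9, Padi4, Hp and Lyz2) lay between -0.07 and 0. The 5 were Retnlg, Chil3, Camp, Ngp and Ltf. All of them but Retnlg were below the minimum level of 0.5 in the naive sample. They were thus counted only through the metastasis-bearing sample, where they were high, and the count of 5 against 0 rests mostly on such genes. The median was 0.45, and between 0.14 and 0.49 over the alternatives. In the Hom pair 8 were higher and 0 lower, with a median of 0.72. Retnlg, a resistin-like protein of neutrophils, was 82.5 and 169 in the Het pair and 70.2 and 161 in the Hom pair. Chil3, a chitinase-like secreted protein, was 0.488 and 2.61 in the Het pair, with a count in 14.5% and 35.4% of neutrophils. At 1000 counts per cell these shares were 4.65% and 15.4%, beside 2.75% and 4.01% in B cells, which should lack the gene.

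Camp, Ngp and Ltf, proteins of the granules made in marrow precursors, rested on very few cells. Camp was 0.112 and 2.03, yet 29 and 32 neutrophils had a count, and 5 metastasis-bearing cells with at least 10 counts held 94.8% of the sample's counts. Ngp was 0.342 and 2.57, with 2 and 8 cells of at least 10 counts. Ltf was 0.0374 and 0.720, with 0 and 5 such cells, where 0 of 795 naive cells allows a share of up to 0.377%. The Hom metastasis-bearing sample held 8 such cells for Camp, 10 for Ngp and 7 for Ltf, while the Hom naive sample held 0 for each.

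Several stefins, small inhibitors of cysteine proteases, were higher. Stfa1, Stfa2, Stfa2l1 and BC100530 were called higher, while the stefins Stfa3 and Cstb of the same list were not. More than 50% of the Stfa2 counts lay in 5 cells. Stfa1 was 1.24 and 4.08 in Het neutrophils, with 14 and 36 cells of at least 10 counts. Stfa2l1 was 11.2 and 28.0, and BC100530 0.701 and 1.75. In the Hom pair the log2 ratios of Stfa1 and Stfa2l1 were 3.21 and 1.89, against 1.64 and 1.32 in the Het pair. Of the whole acute phase and stefin list, 5 of 18 genes were higher and 3 lower in the Het pair, and 12 were higher and 0 lower in the Hom pair. Steap4, a metalloreductase, was 2.92 and 0.564 in the Het pair and 0.630 and 2.32 in the Hom pair. Lrg1, a secreted glycoprotein of neutrophil granules, was 21.1 and 12.5 against 6.24 and 13.3. For Steap4 and Lrg1 the Het naive sample was thus the highest of the 4.

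**Figure D4:**
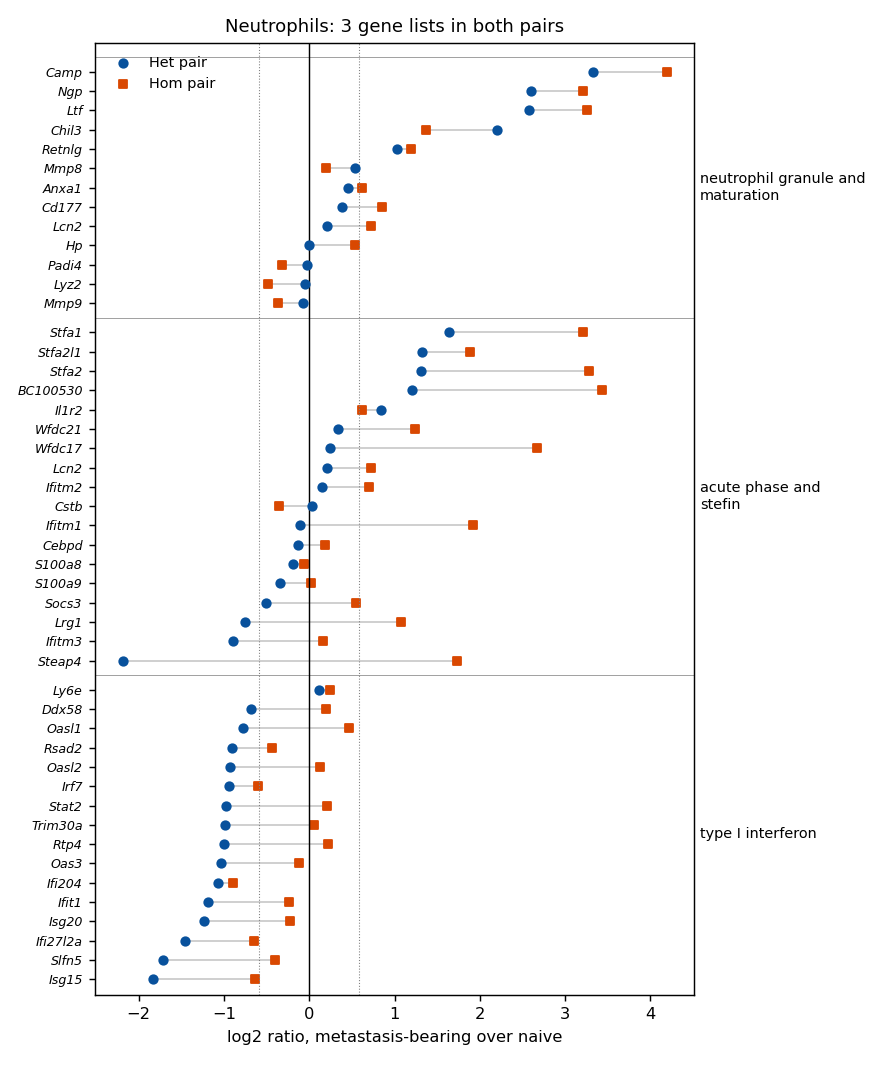
Log2 ratio of metastasis-bearing over naive neutrophils for counted genes of 3 lists, in the Het pair (circles) and the Hom pair (squares); dotted lines mark 1.5-fold. Interferon genes lie left of 0 in the Het pair except Ly6e (0.11), and Steap4 takes opposite sides (-2.19 and 1.73).

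Other genes led the neutrophil ranking. Pik3ip1, an inhibitor of phosphoinositide 3-kinase, was 0.0287 and 0.585, a log2 ratio of 2.41. Fkbp5, a co-chaperone induced by glucocorticoids, was 0.135 and 0.744, and Plin2, a coat protein of lipid droplets, 0.253 and 1.07. All 3 were higher in the Hom pair too, at 1.57, 1.31 and 2.12. Among the lowest, Slfn4 was 8.09 and 1.93, Ifit1bl2 0.589 and 0.0810, and Acod1, which makes itaconate, 1.38 and 0.303. Slfn4 and Ifit1bl2 were -0.41 and -0.40 in the Hom pair and Acod1 was 1.00.

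A gene was taken as changed in 1 cell type alone when it was at least 2-fold different there and its log2 ratio was under 0.32 in size in each other type where it was counted. Cell types where the gene was not counted had no such limit, so alone does not mean unchanged there. In such types Clec12a (0.61), Lcn2 (-0.83), Pilra (-0.49) and Hip1 (-0.43) went past it in T cells. Ptpn22 (0.40) did so in neutrophils and Pilra (0.34) in B cells. In neutrophils alone 5 genes were higher (0.264% of 1893) and 2 lower (0.106%). The higher genes were Ptp4a1, a phosphatase (0.583 and 1.99), Gpr141 (0.425 and 1.30), Acsl1, an acyl-CoA synthetase (0.437 and 1.19), Clec12a, an inhibitory lectin receptor (0.661 and 1.59), and Cd300a, an inhibitory receptor (1.92 and 3.98). Only Ptp4a1 was past the fold in the Hom pair, at a log2 ratio of 0.87, while the other 4 lay between -0.07 and 0.12. The lower genes were Slfn5 (-1.72) and Ifi204 (-1.07), which in the Hom pair were -0.40 and -0.90.

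Neutrophils of the metastasis-bearing Het sample held less B cell and erythroid RNA. The 10 B cell markers summed to 6.74 in naive and 2.97 in metastasis-bearing Het neutrophils, with counts of all 10 in both samples. The MHC class II genes, which B cells express strongly, were lower in 3 of 4 counted in neutrophils, with a median of -0.71. The 7 erythroid markers summed to 21.8 and 1.38, and of Hbb-bs counts 94.1% lay in 5 naive cells. Platelet markers summed to 0.339 and 0.459, eosinophil markers to 0.172 and 0.198 and NK markers to 0.147 and 0.141. The part of these RNAs in the neutrophil results was not tested.

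In monocytes, genes of classical monocytes were higher and those of patrolling monocytes lower. Of 13 classical genes counted, 6 were at least 1.5-fold higher and 0 lower, with a median log2 ratio of 0.58. Of 14 patrolling genes, 6 were lower and 0 higher, with a median of -0.52. The Hom pair gave 6 higher classical genes with a median of 0.51 and 6 lower patrolling genes with a median of -0.51. Over the alternatives the Het medians stayed between 0.34 and 0.65 and between -0.76 and -0.22.

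Chil3 led the monocyte ranking. It was 17.7 and 111 in the Het pair and 28.0 and 81.6 in the Hom pair. Of 175 naive Het monocytes 56 had at least 10 Chil3 counts (32.0%, 25.2 to 39.5), and of 322 metastasis-bearing ones 216 (67.1%, 61.7 to 72.2). In B cells, which should lack Chil3 and had median depths of 4677.5 and 4257 UMIs, its level was 0.264 and 0.333. Vcan, a matrix proteoglycan, was 1.52 and 5.76 in Het monocytes. Fn1, fibronectin, was 8.90 and 21.4, and F13a1, a clotting factor subunit, 5.56 and 10.6. Ly6c2, which encodes the surface marker of classical monocytes, was 11.9 and 10.6, and Ccr2 12.2 and 17.7, a log2 ratio of 0.54.

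The patrolling genes with the largest differences were Eno3, a muscle-type enolase (1.93 and 0.568), Cd300e, an activating receptor (1.28 and 0.364), and Pglyrp1, a peptidoglycan-binding protein (5.06 and 1.82). Cx3cr1 was 3.18 and 2.20 in Het monocytes, and 0.426 and 0.277 in Hom monocytes. Nr4a1, a nuclear receptor that patrolling monocytes need, was 2.69 and 2.01. Monocytes with more counts of classical than of patrolling genes were 92.6% of naive cells (87.6 to 96.0) and 96.0% of metastasis-bearing cells (93.2 to 97.8), with overlapping intervals. Within these cells alone 95 genes were higher and 233 lower, near the 93 and 257 of all monocytes. The classical list summed to a level of 407 in naive Het monocytes and the patrolling list to 57.8. The split thus kept most cells of both samples and cannot tell the subsets apart. An F13a1 count was found in 52.6% of naive and 78.3% of metastasis-bearing Het monocytes, and an Nr4a1 count in 52.0% and 43.2%. The part of the subsets in the monocyte values was not tested.

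MHC class II genes took opposite directions in the pairs of monocytes. In Het monocytes 3 of 6 counted were at least 1.5-fold higher and 0 lower, with a median of 0.59 that lay between 0.07 and 0.67 over the alternatives, and in Hom monocytes all 6 were lower, with a median of -1.04. H2-Ab1, a class II beta chain, was 5.32 and 8.54 in the Het pair and 14.6 and 6.69 in the Hom pair. The share of Het monocytes with an H2-Ab1 count nonetheless went from 34.9% to 26.1%. Cd74, the invariant chain, was 25.3 and 28.0 in the Het pair, with a count in 66.3% and 39.4% of cells. A higher level thus stood beside a lower share of cells, and no order is read from the shares. The 10 B cell markers summed to 12.1 and 5.10 in Het monocytes. Of 8 dendritic cell markers, 7 had a count in each Het sample, with Clec9a at 0 in the naive and Xcr1 at 0 in the metastasis-bearing one, and they summed to 4.16 and 3.96. Cd209a was 0.504 and 0.741 and Flt3 0.112 and 0.549. In Hom monocytes all 8 had a count and summed to 9.29 and 3.78, with Cd209a at 2.67 and 0.464. The part of B cells and dendritic cells in the class II values was not tested.

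**Figure D5:**
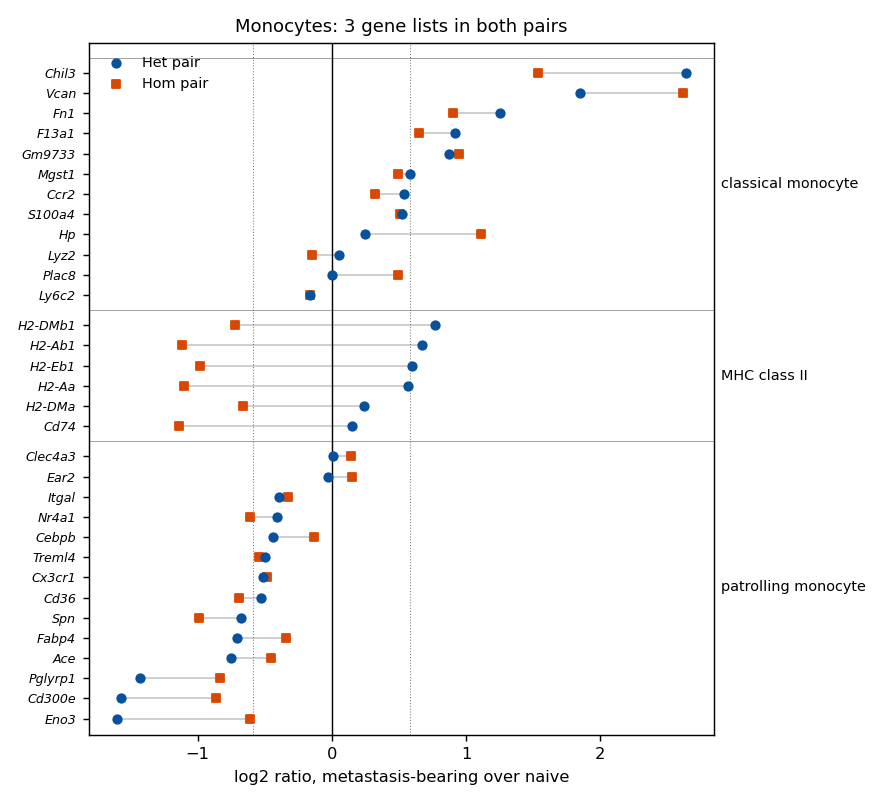
Log2 ratio of metastasis-bearing over naive monocytes for counted genes of 3 lists in the Het pair (circles) and the Hom pair (squares); dotted lines mark 1.5-fold. Chil3 (2.64) and Vcan (1.85) lead the classical list in the Het pair, and H2-Ab1 takes opposite sides (0.67 and -1.12).

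Inflammatory cytokine genes were lower in Het monocytes. Of 13 NF-kB and cytokine genes counted, 5 were lower and 0 higher, with a median of -0.57 (between -0.65 and -0.06 over the alternatives), beside 1 higher and 1 lower and a median of 0.05 in the Hom pair. Il1b was 3.81 and 1.99. Tnf was 0.605 and 0.192. Ccl3, a chemokine, was 0.762 and 0.281, but its log2 ratio of -1.18 was 0.34 among cells of a common range of depth. The neutrophil markers in Het monocytes summed to 63.2 and 47.4, and their part in these values was not tested.

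Among the other leading monocyte genes, Fkbp5 was 0.134 and 0.779 and Id2, an inhibitor of basic helix-loop-helix factors, 0.795 and 3.05. Slfn4 was 0.583 and 0.115, and Dusp16, a phosphatase of MAP kinases, 1.18 and 0.364. These genes had the same sign in the Hom pair, at 1.65, 0.76, -0.35 and -0.81. Pltp, a phospholipid transfer protein, was 1.36 and 0.383 in the Het pair and 0.830 and 1.46 in the Hom pair. In monocytes alone 4 genes were higher (0.160% of 2497) and 5 lower (0.200%). The higher genes were Fpr2, a formyl peptide receptor (0.336 and 1.37), Bst1 (0.437 and 1.21), Lcn2, which binds iron siderophores (1.14 and 2.80), and Tgfbi, an extracellular matrix protein (4.53 and 9.26). All 4 were higher in Hom monocytes too, with log2 ratios from 0.99 for Fpr2 to 3.53 for Lcn2. In the Hom pair Lcn2 was also past the fold in neutrophils, at 0.72. The lower genes were Ltb, lymphotoxin beta (1.05 and 0.434), Tbc1d1, Gigyf2, Hip1 and Pilra, and Ltb was the only one of them past the fold in the Hom pair, at -1.35.

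B cells changed least by count. Ppp1r21 was 0.216 and 0.911, a log2 ratio of 1.68, and 0.86 in the Hom pair. Ptpn22, a phosphatase that restrains antigen receptor signalling, was the 1 gene higher in B cells alone (0.0415% of 2410), at 0.288 and 1.04, and in the Hom pair it was 0.265 and 0.983. In T cells Ptpn22 was 1.46 and 1.82. Pik3ip1 was 0.461 and 1.13 in B cells. The lowest genes after Ifi27l2a included Ccnd2, cyclin D2 (0.562 and 0.171), and Ifi47, an interferon-induced GTPase (0.816 and 0.337). Ifi47 was -0.86 in the Hom pair and Ccnd2 0.16.

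Of 12 B cell activation and subset genes counted, 2 were at least 1.5-fold lower and 0 higher, with a median of -0.37. Cd83 was 1.15 and 0.709 and Cd24a 3.18 and 1.78, and in the Hom pair their ratios were -0.40 and -0.55. Ighd, the heavy chain of IgD on mature B cells, was 10.0 and 13.9. Of 11 endoplasmic reticulum stress genes, all were below 0 and 2 passed the fold: Hsp90b1 (2.48 and 1.47) and Xbp1 (0.624 and 0.380). The MHC class II list in B cells had 0 of 10 past the fold and a median of 0.17.

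The few glucocorticoid-responsive genes counted were higher in both lymphocyte types. Of 13 listed genes only 3 were counted in T cells and 4 in B cells. In T cells all 3 were at least 1.5-fold higher, with a median of 0.87, beside 1.58% of all genes and a median of -0.08. In B cells 2 of 4 were, with a median of 0.58, beside 0.965% of all genes and a median of -0.05. Tsc22d3, the leucine zipper protein GILZ, was 2.20 and 3.80 in T cells and 3.79 and 5.89 in B cells. Txnip, which binds thioredoxin, was 3.03 and 6.74 in T cells and 3.25 and 6.66 in B cells. Il7r, the interleukin 7 receptor, was 6.60 and 12.1 in T cells. In the Hom pair the log2 ratios of Tsc22d3, Txnip and Il7r in T cells were 0.87, 0.63 and 1.10. In neutrophils 2 of 7 genes of the list were higher, and in monocytes 2 were higher and 1 lower.

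The largest T cell differences lay in genes of NK cells. Gzma, a granzyme, was 13.5 and 0.0880, Prf1, perforin, 1.22 and 0.308, and Klrb1c, which encodes NK1.1, 0.847 and 0.205. The 8 NK markers summed to 19.1 in naive and 1.04 in metastasis-bearing Het T cells, and to 44.2 and 1.02 in the Hom pair. The naive T cell cluster held 12 Het cells with NK markers, while 35 metastasis-bearing Het cells formed an NK cluster of their own. Without those 12 cells, the log2 ratio of Gzma went from -6.18 to -0.01 and that of Prf1 from -1.69 to 0.09, and the genes lower in T cells from 94 to 54. The 3 genes lower in T cells alone (0.155% of 1932), Fcer1g, Tyrobp and Anxa2, went from -2.46, -2.23 and -1.62 to -0.61, 0.05 and -0.48.

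Of the 33 higher T cell genes, 30 stayed past the fold without the NK marker cells, when 44 were called, 25 with the NK cluster added and 18 among cells whose own markers were highest. The CD8 gate held 29.4% of naive (22.1 to 37.6) and 54.7% of metastasis-bearing Het T cells (46.0 to 63.3). The CD4 gate held 39.2% (31.1 to 47.7) and 36.5% (28.4 to 45.1), with overlapping intervals. The B220 gate held 16.1% of naive and 0% of metastasis-bearing Het T cells, and the CD3 gate 74.1% and 97.8%. A Cd8b1 count was found in 38.5% and 59.1% of the Het T cells and a Cd4 count in 33.6% and 18.2%. The part of this makeup in the T cell values was not tested. Cxcr6, a chemokine receptor of effector and tissue-resident T cells, was 0.451 and 1.13 in the Het pair, and its log2 ratio was 1.16 with and 1.13 without those cells. Bcl2, which blocks apoptosis, was 3.26 and 6.90, and its ratio was 1.06 and 1.04. In the Hom pair Cxcr6 was 1.18 and Bcl2 0.25. Of 11 genes of naive T cell circulation, 1 was past the fold, Il7r, which is in the glucocorticoid list too. The others were close to level, such as Ccr7 (-0.10) and Tcf7 (0.17).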

How the data were processed

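Per the labels' protocols, blood cells were tagged with antibodies and hashtags and profiled with the 10x 3' v3 assay, and per the submitters' processing notes reads were handled with Cell Ranger 3.1 on mm10. The authors deposited, for each table, the natural log of 1 plus a count corrected for cell depth, together with UMI counts per cell, hashtag classes, clusters and antibody gates. The deposited natural log values were turned back into corrected counts, which were whole within 1.18e-11, and summed over the cells of a hashed sample and cell type. The 2 tables were normalised separately, so every level set across them rests on that step. The authors' hashtag classes held single samples only, and no doublet caller was run.

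With 1 sample in each group no test was made and no count model was fitted. Genes had to be in both tables (16151). The members and the 30 gene lists were chosen with earlier results of these data known. In each cell type, the text names the 5 higher and 5 lower genes of largest log2 ratio with a count in at least 10% of cells of the higher sample, the genes shared by all cell types, up to 4 genes of 1 cell type alone in each direction (where there were more, the rest were named after their values were seen), and up to 4 genes of highest level from each list. The rankings passed over genes of ribosomes, mitochondria, antigen receptors and haemoglobin, and unnamed Gm and Rik genes. Of the named genes, 57 were chosen after their values were seen. Shares have exact Clopper-Pearson 95% intervals, and the limit that a count of 0 allows is 3 counts, both for counting error only. Values were recomputed under 11 other settings, and 4 more were chosen after seeing the data. The scripts were tested on simulated data and used Python 3.11.15, NumPy 2.4.6, pandas 2.3.3 and SciPy 1.17.1. Brain cells and the separate antibody counts were not used here, and 2 members of the lists are counted but not reported by name.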

Additional observations from a re-analysis of the deposited data

Results flagged for a closer look

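For 18 values of the genes chosen to be named, the Het pair and the Hom pair were past 1.5-fold in opposite directions. Over all genes called in the Het pair, those past the fold the other way in the Hom pair were 1 of the 145 higher and 11 of the 118 lower in neutrophils, 7 of 93 and 5 of 257 in monocytes, 1 of 33 and 3 of 94 in T cells, and 0 of 27 and 0 of 45 in B cells. None of these differences was tested, since each pair holds 1 sample of each kind, and all are log2 ratios of metastasis-bearing over naive blood. In neutrophils these were Steap4 (-2.19 in the Het pair and 1.73 in the Hom pair), Acod1 (-1.87 and 1.00), Lrg1 (-0.75 and 1.08) and Hif1a, a hypoxia-inducible transcription factor (-0.62 and 0.61).

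In monocytes the MHC class II genes H2-Ab1 (0.67 and -1.12), H2-Eb1 (0.60 and -0.98) and H2-DMb1 (0.77 and -0.72) were opposite, as were Pltp (-1.59 and 0.74), S100a9 (-0.63 and 0.67) and Lrg1 (-0.94 and 2.79). Of the Lrg1 counts in Het naive monocytes, 52.6% came from 5 cells, and among cells whose own markers were highest its Het ratio was 0.20. Retnla was -4.74 and 3.08, and 390 of its 398 counts in Het naive monocytes came from 1 cell. The haemoglobin genes Hbb-bs (4.57 and -3.69), Hba-a1 (4.73 and -3.19), Hba-a2 (4.30 and -3.11) and Hbb-bt (2.88 and -4.67) rested on few cells too, with 97.7% of Hbb-bs counts of the Het metastasis-bearing monocytes in 5 cells.

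In T cells the neutrophil genes S100a8 (-1.52 and 0.64) and S100a9 (-0.96 and 0.64) and the immunoglobulin gene Iglc2 (-0.70 and 0.73) were opposite. Of their counts in Het naive T cells, 76.0%, 71.3% and 63.4% came from 5 cells each. Among cells whose own markers were highest, the Het ratio of S100a8 was 0.06, that of S100a9 0.10 and that of Iglc2 -1.01. The neutrophil markers in T cells summed to 13.3 and 6.13 in the Het pair and to 7.65 and 11.7 in the Hom pair.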

How the results depend on the processing

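No value has a replicate behind it, levels rest on tables normalised separately, and low genes decide most counts. No paired analysis was possible because each group held 1 hashed sample and the labels number no replicates. Where a value changed, the cause was not tested unless the setting itself took out genes or cells. Counts below are of genes past 1.5-fold, higher and then lower, against 145 and 118 in neutrophils, 27 and 45 in B cells, 93 and 257 in monocytes, and 33 and 94 in T cells. In that order of cell types, 2246, 2797, 2965 and 2091 genes were counted in the main setting. A setting can change the calls through the number of genes counted alone.

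With all deposited cells there were 78 higher in neutrophils, 18 lower in B cells, 28 higher and 77 lower in monocytes, and 61 lower in T cells. There 2257, 2838, 3068 and 3116 genes were counted. Centring on the median gave 94 higher in neutrophils and 51 higher in T cells. A pseudocount of 0.01 gave 41 higher in B cells. A pseudocount of 1 gave 36 and 31 in neutrophils, 6 and 7 in B cells, 29 and 30 in monocytes, and 5 and 25 in T cells. A minimum of 20 counts with no minimum level gave 405 and 202, 86 and 110, 161 and 655, and 237 and 245. These were of 6964, 8125, 6365 and 5216 genes counted. A level of at least 2 gave 41 and 36, 9 and 11, 38 and 31, and 8 and 22, of 711, 572, 779 and 512. Thinning to 1000 counts gave 31 lower of 826 in monocytes, and 12 and 20 of 293 in T cells. A common range of depth gave 70 lower of 1980 in monocytes. Keeping cells whose own markers were highest gave 37 lower of 1550 in T cells. T cells without NK marker cells, chosen after seeing the data, had 54 lower genes of 1936, and with the NK cluster 99 higher and 39 lower of 2463.

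Rbm3 was higher in all 4 cell types under every setting run. Cirbp dropped out, leaving 1 higher gene in all 4, with a pseudocount of 1, a level of at least 2, or thinning, and the higher genes were 4 with 20 counts and no minimum level. Genes counted in all 4 were 257 with a level of at least 2 and 223 after thinning, against 1065 in the main setting. A gene could drop out there by not being counted. In neutrophils both Cirbp and Dnaja1 lay below a level of 2. Lower genes in all 4 numbered 0 with all deposited cells, centring or thinning. They numbered 1 with a pseudocount of 1, a level of at least 2, a common range of depth, own markers highest or the NK cluster, and 8 at a log2 ratio of 0.32. Genes of 1 cell type alone, 10 higher and 10 lower in the main setting, were 18 and 20 with a pseudocount of 0.01, 1 and 4 with 1, 26 and 40 with 20 counts and no minimum level, 5 and 5 with a level of at least 2, and 16 and 6 in a common range of depth. Thinning gave 6 higher and all deposited cells 6 lower. The number of genes counted differed between most of these settings too.

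With all deposited cells the shares were 43.5% and 34.0% for neutrophils, 20.6% and 25.7% for B cells, 12.1% for naive monocytes and 7.84% for metastasis-bearing T cells. With own markers highest, monocytes were 8.45% and 14.0%, and naive T cells 6.35%.

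Of the 507 single-gene values, 503 kept their direction and side of the fold with a hashtag share of at least 0.8. Only 433 did with all deposited cells, 429 with a pseudocount of 1 and 450 in a common range of depth. The number was 466 both with thinning and with own markers highest, and 487 with centring on the median. Some changes of single-gene values were changes of sign. Those whose log2 ratio turned in T cells with the NK cluster were Gzma (0.96), Fcer1g (1.08), Tyrobp (0.67), Prf1 (1.19), Klrb1c (1.55), Anxa2 (0.42), Itgal (0.26), Ccl5 (0.46), Hbb-bs (0.47), Hba-a1 (0.15), Ccl4 (0.56), Gzmb (1.08) and Nkg7 (0.48). Without NK marker cells, Tyrobp (0.05), Prf1 (0.09), Klrb1c (0.38), Ccl4 (0.14) and Nkg7 (0.11) turned. With own markers highest, those in T cells were Klrb1c (0.13), S100a9 (0.10), S100a8 (0.06), Iglc1 (0.17) and Ccl4 (0.05). Those in monocytes were Ms4a1 (0.04), Iglc2 (0.95), Iglc3 (0.34), Stfa2l1 (-0.35), Lrg1 (0.20), Ccl3 (0.12) and Cd79a (0.14). In a common range of depth, Hbb-bs (0.42) and Hbb-bt (0.32) turned in T cells, Hbb-bt in neutrophils (0.51) and B cells (0.00), and Ccl3 in monocytes (0.34).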

Other observations

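Haemoglobin RNA, left from red cells, sat in a few barcodes and moved in both directions. In Het neutrophils the 4 counted haemoglobin genes had a median log2 ratio of -3.50, in T cells -4.61, and in monocytes 4.43. In Het naive T cells, 98.0% of Hbb-bs counts lay in 5 cells.

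Several of the called genes rested on few cells. More than 50% of counts lay in 5 cells of the higher sample for 5 of 145 higher and 4 of 118 lower genes in neutrophils, 0 of 27 and 1 of 45 in B cells, 6 of 93 and 8 of 257 in monocytes, and 1 of 33 and 18 of 94 in T cells.

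Clusters outside the 4 matched cell types were 9.73% of naive and 11.7% of metastasis-bearing Het cells.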
